A study of Homo sapiens with 4 samples.

Results

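Aminoacyl-tRNA synthetases are the enzymes that join each amino acid to its tRNA and so supply the ribosome with charged tRNA. Most amino acids have a separate enzyme for the cytosol and for the mitochondrion, both encoded in the nucleus, and the mitochondrial gene usually carries the suffix 2. In human cells 8 of the cytosolic enzymes assemble with 3 scaffold proteins into the multisynthetase complex, while the others work outside it. Enzymes fall into class I and class II by the fold of the catalytic domain. When amino acids run short, uncharged tRNA activates the kinase GCN2, and the transcription factor ATF4 then raises amino acid transporters, asparagine synthetase and many cytosolic synthetase genes.

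The genes were chosen by name. The list held 36 genes of 60671 in the deposited table, 20 for cytosolic and 16 for mitochondrial enzymes, and all 36 were found, 18 of them under the newer symbol that adds a 1 (QARS1 for QARS). GARS1 and KARS1 serve both compartments and are counted here as cytosolic, and EPRS1 joins a glutamate and a proline enzyme in 1 protein. RNA with a poly(A) tail was measured in 4 libraries of H9, an established human embryonic stem cell line grown in mTeSR medium. The control group held 2 libraries labelled control. The study's mock controls were clones given an empty CRISPR/Cas9 vector, but the labels do not say whether these libraries came from them. The other group, called KO+OE here, held 2 libraries of cells labelled CFIm25 KO together with overexpression of 3Flag-CFIm25. By the study's account these cells descend from a single edited clone with a shortened CFIm25 protein at a low level, into which a lentivirus brought tagged CFIm25 under an EF1 promoter. No library of edited cells without the re-expressed protein is among these 4, and the labels do not say whether replicates came from separate cultures, so p-values measure the spread between these libraries, which may be technical.

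No unit was named for the deposited values, and they were read as TPM. TPM is the share of transcripts after division by transcript length, scaled to a common total. On this reading, levels of different genes can be set side by side as far as length goes. TPM makes no allowance for base composition, which is described below. No read counts were used, and the depth of each library is unknown. Columns summed to 986853 to 987078, and transcripts of the mitochondrial genome took 21.0% to 22.1% of a library, a little more in both KO+OE libraries (21.6% and 22.1%) than in the controls (21.0% and 21.1%). The cell type label was checked against markers. All 6 pluripotency markers exceeded 1 TPM, and their summed level was 2972 to 3014 TPM in every library. Of 5 fibroblast markers LUM was listed at 0 in every library and COL3A1 and DCN at 0 to 0.08 TPM, but COL1A1 stood at 53.9 to 55.6 TPM and COL1A2 at 13.0 to 14.5 TPM, and the summed fibroblast level was 67.2 to 68.8 TPM. Of 7 germ layer markers only GATA6 exceeded a mean of 1 TPM. NUDT21, which encodes CFIm25, was 160.67 and 152.20 TPM in control and 162.09 and 156.60 TPM in KO+OE, so the RNA of the edited gene does not separate the groups.

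Every synthetase gene was expressed. Their mean levels over the 4 libraries ran from 1.92 TPM for WARS2 to 429 TPM for QARS1. The median cytosolic enzyme stood at 73.5 TPM and the median mitochondrial enzyme at 10.5 TPM, against 7.77 TPM for the 12319 genes that averaged 1 TPM or more and were tested. This order held in each library, with cytosolic medians of 72.8 to 74.4 TPM and mitochondrial medians of 9.59 to 10.7 TPM. Summed over genes, cytosolic enzymes took 2070 to 2141 TPM of a library and mitochondrial enzymes 288 to 292 TPM, a ratio of 7.16 to 7.33. On the log2(TPM + 1) scale the difference of the medians averaged 2.66, and 2.01 when GARS1 and KARS1 were left out. Genes are not replicates, so no test was made of this difference.

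**Figure D1:**
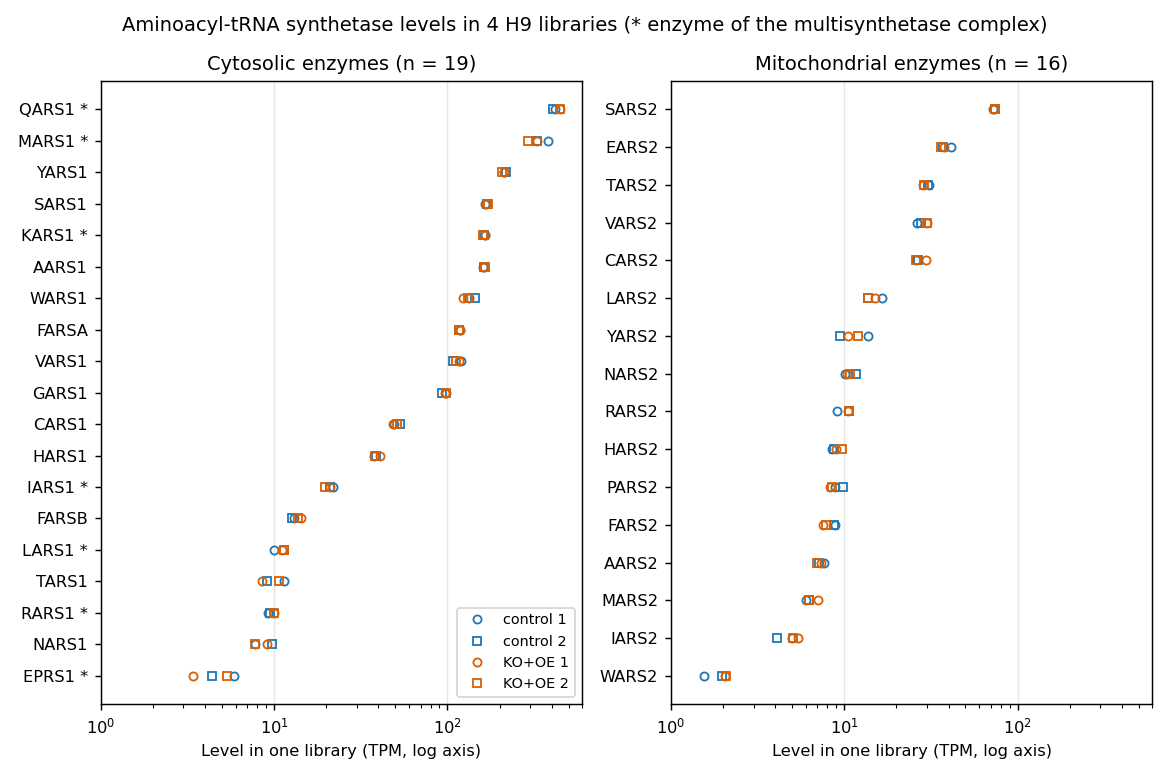
Level of 35 of the aminoacyl-tRNA synthetase genes in TPM (log axis) in each of the 4 libraries, cytosolic enzymes on the left and mitochondrial enzymes on the right, ordered by mean level; circles and squares are replicates 1 and 2, blue is control and orange is KO+OE. Symbols of a gene lie close together compared with the distance between genes, which spans 1.92 TPM (WARS2) to 429 TPM (QARS1), and the cytosolic panel shows a gap between IARS1 at 20.9 TPM and HARS1 at 38.9 TPM.

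The most abundant members were cytosolic. QARS1, the glutamine enzyme, was 418.18 and 404.25 TPM in control and 448.51 and 445.45 TPM in KO+OE. MARS1, which charges both initiator and elongator methionine tRNA, was 381.26 and 329.10 TPM in control and 329.21 and 290.29 TPM in KO+OE. YARS1, the tyrosine enzyme, followed at 207 to 217 TPM. SARS1 (serine), KARS1 (lysine) and AARS1 (alanine) formed a group between 160 and 172 TPM in all 4 libraries, where SARS1 was the highest of the 3 in each library and the order of KARS1 and AARS1 was mixed. Below them came WARS1 (tryptophan) at 122 to 144 TPM, FARSA, the α subunit of the phenylalanine enzyme, at 116 to 119 TPM, VARS1 (valine) at 108 to 120 TPM and GARS1 (glycine) at 93.2 to 97.9 TPM. CARS1 (cysteine) had a mean of 50.5 TPM and HARS1 (histidine) of 38.9 TPM.

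The remaining 8 cytosolic genes were all low. Of these, IARS1 (isoleucine) averaged 20.9 TPM, FARSB, the β subunit of the phenylalanine enzyme, 13.5 TPM, TARS1 (threonine) 9.93 TPM, RARS1 (arginine) 9.66 TPM, NARS1 (asparagine) 8.59 TPM and EPRS1 (glutamate and proline) 4.77 TPM. LARS1 (leucine) averaged 11.01 TPM, between FARSB and TARS1. No cytosolic gene lay between 20.9 and 38.9 TPM.

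Members of a single physical complex stood far apart in RNA level. Of the 8 enzymes of the multisynthetase complex, QARS1, MARS1 and KARS1 had means of 163 to 429 TPM, whereas the others, IARS1, LARS1, RARS1 and EPRS1 among them, had means of 4.77 to 20.9 TPM. The median of these 8 was 16.0 TPM, and that of the 12 cytosolic genes outside the complex was 105 TPM. The scaffolds were split in the same way. AIMP2 was 58.02 and 60.17 TPM in control and 52.72 and 53.55 TPM in KO+OE. AIMP1 was 2.29 to 3.76 TPM and EEF1E1, which encodes the third scaffold, was 2.31 to 3.80 TPM. The phenylalanine enzyme is built from equal numbers of α and β subunits. In RNA, FARSA exceeded FARSB by 8.31 to 9.10 times in the 4 libraries, which does not give the amounts of the subunits. By catalytic class, with EPRS1 left out because it holds both, the 18 class I genes had a median of 24.0 TPM and the 17 class II genes of 13.5 TPM, and the classes overlapped widely, with means of up to 429 TPM and 168 TPM.

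Among mitochondrial enzymes SARS2, for serine, was the highest in every library, at 72.18 and 73.69 TPM in control and 72.84 and 73.99 TPM in KO+OE. EARS2 (glutamate, 38.1 TPM), TARS2 (threonine, 29.6 TPM), VARS2 (valine, 28.5 TPM) and CARS2 (cysteine, 27.1 TPM) came next by mean level, and the last 3 of these overlapped. LARS2 (leucine) averaged 14.8 TPM. The next 8 genes, YARS2, NARS2, RARS2, HARS2, PARS2, FARS2, AARS2 and MARS2, lay between 6.38 and 11.4 TPM, and IARS2 averaged 4.88 TPM. WARS2, for mitochondrial tryptophan tRNA, was the lowest in every library at 1.55 and 1.98 TPM in control and 2.05 and 2.09 TPM in KO+OE.

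Cytosolic and mitochondrial enzymes for the same amino acid were then compared within each library, over the 16 amino acids for which the list holds both. The cytosolic gene was higher in all 4 libraries for 10 amino acids, the mitochondrial gene was higher in all 4 for 5, and arginine was mixed. The ratio was largest for tryptophan, where WARS1 exceeded WARS2 by 86.3 and 72.9 times in control and by 59.7 and 62.8 times in KO+OE. WARS2 was the lowest member, at 1.55 to 2.09 TPM. Its exons overlap on the opposite strand with those of WARS2-AS1, at a mean of 1.21 TPM, so the tryptophan ratio is less certain. Methionine was next, with MARS1 above MARS2 by 63.5 and 52.8 times in control and by 46.7 and 46.6 times in KO+OE. Alanine, tyrosine and phenylalanine (FARSA over FARS2) had mean ratios of 22.4, 18.7 and 14.3. With FARSB in place of FARSA the phenylalanine ratio was 1.63. Histidine, isoleucine and valine lay near each other, with mean ratios of 4.34, 4.31 and 4.01, and serine and cysteine had ratios of 2.30 and 1.87. Over the 16 amino acids the ratio was lower in both KO+OE libraries than in both controls for 4 (tryptophan, methionine, isoleucine and valine). It was higher in both for 1 (phenylalanine) and overlapping for 11. With 2 libraries per group such separation is frequent, and the levels of 34.1% of all genes tested did not overlap between groups. The separations of the ratios were not tested.

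The reverse order was seen for 5 amino acids. The mitochondrial glutamate enzyme EARS2 was 41.17 and 37.25 TPM in control and 37.69 and 36.33 TPM in KO+OE, on average 8.15 times the level of EPRS1, which was 5.91 and 4.37 TPM in control and 3.43 and 5.38 TPM in KO+OE. Exons of EARS2 overlap on the same strand with those of GGA2, at a mean of 24.1 TPM, so the level of EARS2 is less certain. TARS2 stood on average 3.00 times above TARS1. PARS2 stood 1.89 times above EPRS1, LARS2 1.34 times above LARS1 and NARS2 1.26 times above NARS1, each in all 4 libraries. For arginine RARS1 and RARS2 were indistinguishable, with ratios of 0.890 to 1.02. The 5 cytosolic genes below or level with their mitochondrial partner, EPRS1, TARS1, LARS1, NARS1 and RARS1, are all among the low cytosolic genes named above.

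**Figure D2:**
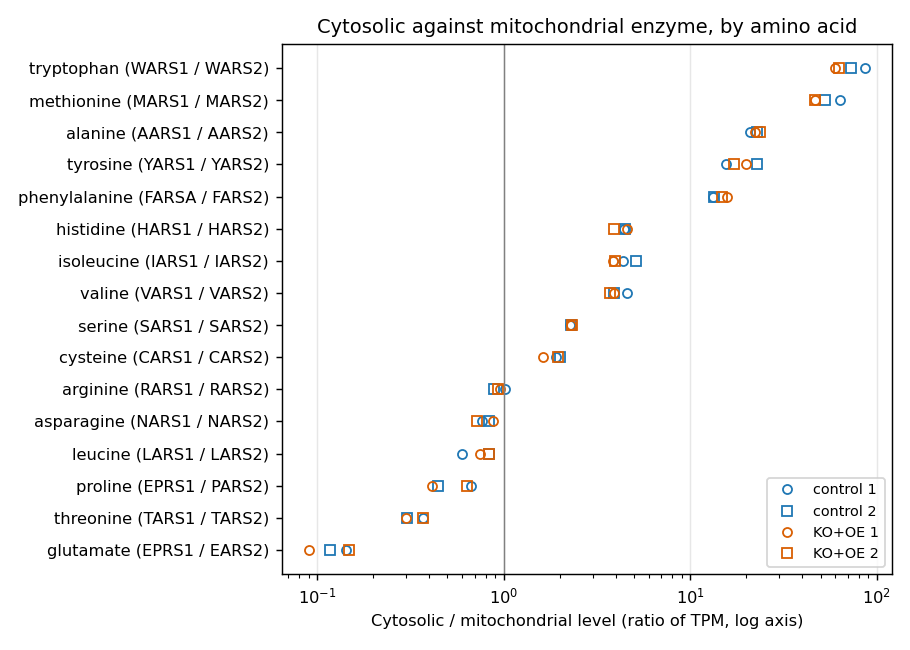
Ratio of the cytosolic to the mitochondrial enzyme's TPM (log axis) for 16 amino acids in each of the 4 libraries; circles and squares are replicates 1 and 2, blue is control, orange is KO+OE, and the grey line marks a ratio of 1. The ratio falls from a mean of 69.7 for tryptophan to 0.123 for glutamate, and the spread of the 4 libraries is small against this range.

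The levels moved with the base composition of the transcript. Across the 20 cytosolic genes TPM and the canonical transcript's GC content had a Spearman correlation of 0.753 to 0.781 in the 4 libraries, and across the 16 mitochondrial genes it was 0.509 to 0.521. Over 12144 genes tested that had a GC content it was 0.264 to 0.277. These points share libraries, are not independent replicates and are given as a description. The 8 low cytosolic genes were also the 8 with the lowest GC content, 43.3% at most, and their levels reached 20.9 TPM at most. The other 12 cytosolic genes had a GC content of 47.1% to 61.7% and levels of at least 38.9 TPM. This division, at a GC content of 45%, was chosen after the values had been seen. In the multisynthetase complex the 3 abundant enzymes had a GC content of 47.3% to 54.8% and the 5 scarce ones of 43.3% at most. The scaffolds followed the same order, with 51.2% for AIMP2, 36.4% for EEF1E1 and 35.2% for AIMP1. The FARSA transcript had a GC content of 61.3% and the FARSB transcript of 40.0%. Mitochondrial genes showed no such gap. The 4 with a GC content under 45%, NARS2, RARS2, IARS2 and WARS2, had means of 1.92 to 10.7 TPM, and the other 12 had means of 6.38 to 73.2 TPM, with AARS2 at only 7.29 TPM despite a GC content of 57.7%. Correlations with transcript length were weaker, at -0.423 to -0.394 for cytosolic and -0.112 to -0.0647 for mitochondrial genes. For the 5 amino acids with the mitochondrial gene higher, the cytosolic transcript had the lower GC content, as with TARS1 (42.8%) and TARS2 (54.6%). It was also the lower for alanine, isoleucine, serine and cysteine, where the cytosolic gene had the higher level. The part of base composition in the levels and in the ratios was not tested.

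**Figure D3:**
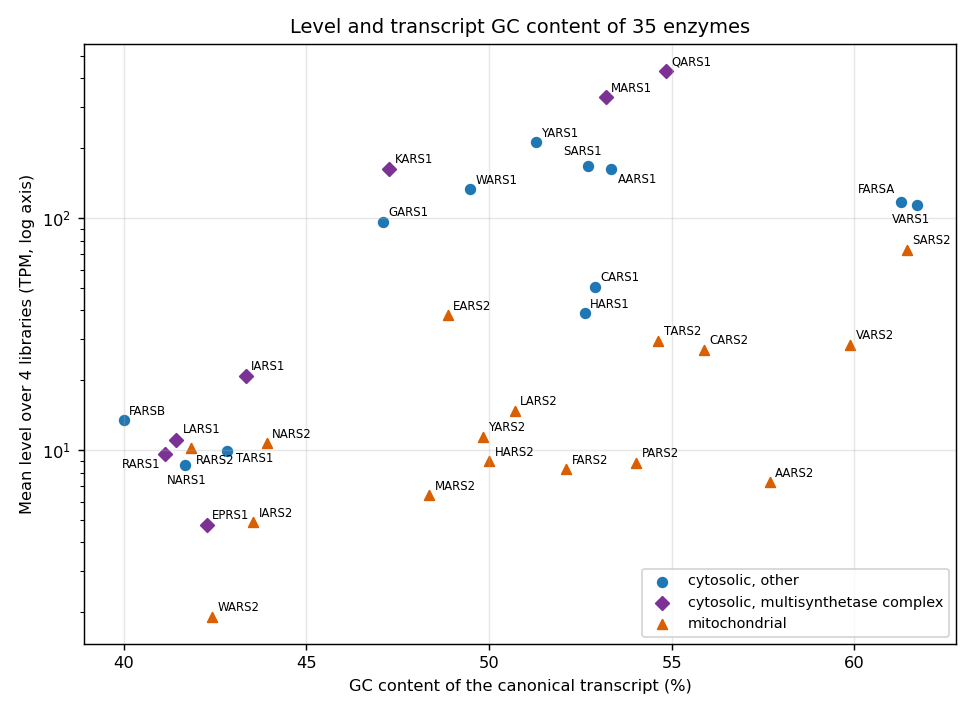
Mean level over 4 libraries (TPM, log axis) against the GC content of the canonical transcript (%) for 35 of the genes; circles are cytosolic enzymes outside the multisynthetase complex, diamonds 7 of its enzymes and triangles mitochondrial enzymes. Cytosolic genes fall into a low group under 45% GC, at 4.77 to 20.9 TPM, and a high group of 12 above it, at 38.9 to 429 TPM, while mitochondrial genes overlap across the range.

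Promoters were searched for the letters TGATGNAA, the core shared by elements that bind ATF4 with C/EBP partners, on both strands of a window from 250 bases before to 50 bases after each RefSeq start. Of the 36 genes 30 had at least 1 window. AARS2, LARS1, VARS1, VARS2 and YARS1 were among those with none. The letters were found for 7 of 16 cytosolic genes (43.8%) and for 1 of 14 mitochondrial genes (7.14%), against 4.46% of 27305 genes with a window and 2.64% of the 8849 of them that were expressed at a mean of 1 TPM or more. Of the amino acid response genes 5 of 15 held them. The 30-base stretches below show each match with its neighbouring bases. The search fixed every letter except N, so the likeness of the matches is set by the search. Of the 7 cytosolic matches 6 read TGATGCAA on one strand or the other, and how often matches in other promoters do so was not counted. Capitals mark the match, or its reverse complement where it lies on the opposite strand, and each stretch is written 5′ to 3′ along the strand of its gene in GRCh38.p14, the same build as the hg38 named in the submitters' processing notes.
MARS1 (chr12:57488053-57488082, plus strand): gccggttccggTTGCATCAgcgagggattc
AARS1 (chr16:70289675-70289704, minus strand): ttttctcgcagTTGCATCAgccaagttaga
CARS1 (chr11:3057407-3057436, minus strand): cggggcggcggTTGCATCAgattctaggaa
IARS1 (chr9:92293692-92293721, minus strand): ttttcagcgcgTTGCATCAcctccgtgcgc
TARS1 (chr5:33440956-33440985, plus strand): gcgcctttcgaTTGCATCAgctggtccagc
NARS1 (chr18:57621804-57621833, minus strand): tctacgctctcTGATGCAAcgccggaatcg
GARS1 (chr7:30594834-30594863, plus strand): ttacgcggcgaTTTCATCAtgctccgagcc
YARS2 (chr12:32756076-32756105, minus strand): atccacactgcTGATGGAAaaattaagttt

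Positions were counted from the annotated start of the window that held the match, with the first transcribed base as position 1. The match began at position -13 in IARS1, -4 in MARS1, -2 in CARS1 and 15 in NARS1, each near the outermost start of the gene. In GARS1 and TARS1 it began at positions -33 and 3 of an alternative start inside the gene, and the window at the outermost start held no match. In AARS1 it began at position -187 and in the mitochondrial YARS2 at -197. CARS1 has a further window at an inner start that held no match. The 7 cytosolic genes with a match spanned almost the whole range of levels, from NARS1 at 8.59 TPM and TARS1 at 9.93 TPM to AARS1 at 163 TPM and MARS1 at 332 TPM. A match of letters is a description and not a binding site.

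HARS1 and HARS2 are neighbours on chromosome 5 and are transcribed away from each other. HARS1 starts at 140691370 on the minus strand and HARS2 at 140691455 on the plus strand, with 84 bases between the starts, 59.5% of them G or C. The stretch is shown because both genes start from its ends, and it reads along the HARS2 strand as follows.
HARS1-HARS2 (chr5:140691371-140691454, plus strand): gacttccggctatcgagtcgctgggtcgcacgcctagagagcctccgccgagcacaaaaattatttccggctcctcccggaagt
From these adjoining starts HARS1 was 37.63 and 38.92 TPM in control and 40.96 and 38.07 TPM in KO+OE, and HARS2 was 8.51 and 8.67 TPM in control and 8.98 and 9.73 TPM in KO+OE. HARS1 was thus 3.91 to 4.56 times higher in each library. The paralogues are alike in sequence, some of their exons in GENCODE release 44 (unlike the RefSeq starts above) overlap on opposite strands, and the strand setting of the counting is not given in the sources used here. Exons of HARS2 also overlap on the same strand with those of ZMAT2, at a mean of 26.5 TPM. The level of HARS2 and its ratio to HARS1 are therefore uncertain.

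The design asks how far the re-expressing cells stood from control, and none of the 36 synthetase genes passed the test. As many genes were higher as were lower, in each compartment. In limma, fitted across all 12319 genes with Benjamini-Hochberg adjustment, 0 of 36 passed an adjusted p of 0.05 (0.00812% of all genes did), and the lowest adjusted p of a member was 0.928. At an unadjusted p under 0.05 there were 2 of 36, against 5.33% of all genes, a count that was 0 with a prior without trend or without KO+OE replicate 1, and 1 when any other library was dropped. The fold changes were balanced, with 18 genes higher and 18 lower in KO+OE, 10 and 10 among cytosolic and 8 and 8 among mitochondrial enzymes. The median log2 fold change on the log2(TPM + 1) scale was 0.00028 for cytosolic and -0.0015 for mitochondrial enzymes, beside -0.012 over all genes tested, and each compartment's median took either sign under the alternatives. The single values ran from -0.20 for EPRS1 to 0.17 for IARS2. In bulk RNA fewer cells of a type and less RNA per cell cannot be told apart.

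Intervals of the fold change give the precision of the estimates from these 2 libraries per group, on the log2(TPM + 1) scale. That scale understates the fold change of low genes. The 95% interval of the fold change lay within 2-fold in either direction for all 36 genes, against 92.6% of all genes tested. It lay within 1.2-fold for 14 of them, 11 cytosolic and 3 mitochondrial, against 26.5% of all genes tested. These 14 all averaged at least 20.9 TPM, and of the members above that level MARS1, WARS1, VARS2 and CARS2 were not among them. Replicates of the 12 members above 50 TPM differed by a median of 0.048 in control and 0.035 in KO+OE on the log2 scale, and those of the 12 members under 10 TPM by 0.11 and 0.096.

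The values of the leading members show how small the differences were. QARS1 had the lowest p of the members. Both KO+OE libraries, at 448.51 and 445.45 TPM, were above both controls, at 418.18 and 404.25 TPM. Its log2 fold change was 0.12, with an interval of 0.041 to 0.20 and an unadjusted p = 0.011 from limma (Benjamini-Hochberg adjusted p = 0.928). VARS2 was the other member at an unadjusted p under 0.05. It was 26.13 and 27.54 TPM in control and 30.04 and 30.16 TPM in KO+OE, again without overlap. Its log2 fold change in limma was 0.16 (interval 0.0075 to 0.31, unadjusted p = 0.043, adjusted p = 0.928). An annotated gene on the same strand, AL669830.2 at a mean of 6.12 TPM, overlaps exons of VARS2, so reads of the pair may have been divided between them.

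MARS1 had the lower mean in KO+OE, 310 ± 27.5 TPM against 355 ± 36.9 TPM in control (SD, n = 2 each), but the groups touched, since control replicate 2 (329.10 TPM) and KO+OE replicate 1 (329.21 TPM) were level. Its log2 fold change was -0.20 with an interval of -0.43 to 0.041. MARS1 shares exon sequence on the opposite strand with DDIT3, a stress response gene at a mean of 4.94 TPM. WARS1 was 133.71 and 144.26 TPM in control and 122.34 and 131.18 TPM in KO+OE, lower in KO+OE without overlap. The estimate was -0.13 on the log2 scale, from -0.28 to 0.017. Neither gene had an unadjusted p under 0.05.

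Groups did not overlap for 14 of the 36 genes, where 34.1% of all genes tested did not. In 8 of these KO+OE was higher, against 14.5% of all genes, and in 6 it was lower, against 19.6%. The 8 were QARS1, AARS1, FARSB, RARS1, VARS2, HARS2, IARS2 and WARS2, and the 6 were YARS1, WARS1, IARS1, TARS2, PARS2 and FARS2. With 2 libraries per group such separation is frequent, and most of these differences were small. AARS1, for example, was 160.32 and 163.51 TPM in control and 163.77 and 164.39 TPM in KO+OE, which is 0.02 on the log2 scale, and it overlaps on the opposite strand with DDX19B, at a mean of 50.7 TPM. FARS2 was 8.85 and 8.70 TPM in control and 7.58 and 7.88 TPM in KO+OE, or -0.16 on the log2 scale (interval -0.39 to 0.067). TARS2 was 30.89 and 30.27 TPM in control and 28.37 and 28.96 TPM in KO+OE, or -0.09.

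**Figure D4:**
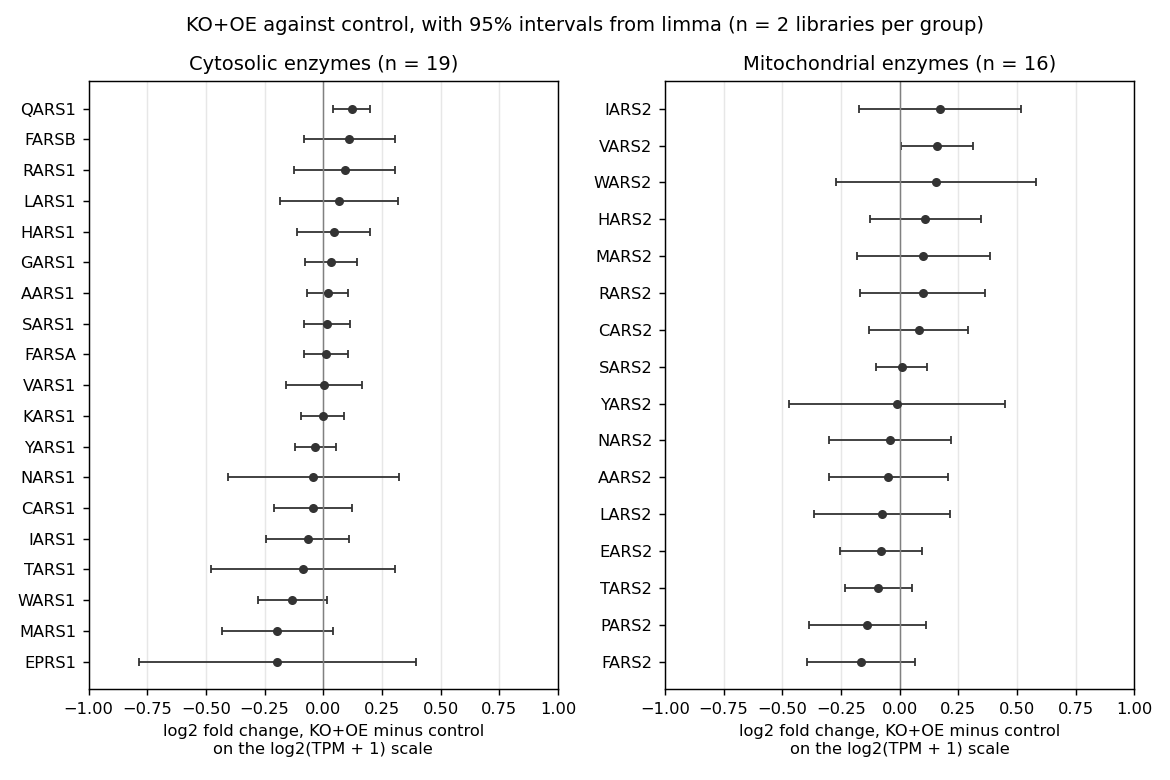
Log2 fold change of KO+OE against control on the log2(TPM + 1) scale for 19 cytosolic and 16 mitochondrial enzymes, ordered by value; points are limma estimates from 2 libraries per group and bars their 95% intervals. Points lie between -0.20 and 0.17 on both sides of 0, every bar stays within 2-fold, and only those of QARS1 and VARS2 do not cross 0.

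The estimates of some low members, EPRS1, YARS2 and TARS1, turned on single libraries. Other low members, such as FARS2, PARS2 and RARS1, kept their sign with any library left out. The more abundant KARS1, SARS1 and VARS1 did not. For EPRS1 the log2 fold change of -0.20 became 0.067 when KO+OE replicate 1 was dropped and -0.46 when KO+OE replicate 2 was dropped. YARS2 was 13.64 and 9.50 TPM in control and 10.57 and 12.06 TPM in KO+OE, and its estimate of -0.01 on the log2 scale moved to 0.23 when control replicate 1 was dropped and to -0.25 when control replicate 2 was. TARS1 was 11.37 and 9.14 TPM in control and 8.53 and 10.67 TPM in KO+OE, and its estimate of -0.09 became 0.059 when KO+OE replicate 1 was dropped and 0.057 when control replicate 1 was. In these 3 genes replicates differed by more than the group means did.

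Scaffolds and other partners of the enzymes were compared in the same fit. Of the 3 scaffolds of the multisynthetase complex none passed an adjusted p of 0.05, and AIMP2, the scaffold that binds KARS1, had an unadjusted p = 0.0244 from limma (log2 fold change -0.15, interval -0.27 to -0.029, adjusted p = 0.928), with both KO+OE libraries below both controls. AIMP1 and EEF1E1 both had log2 fold changes of 0.18, with overlapping groups and intervals of -0.37 to 0.73 and -0.37 to 0.74. Of 15 partners, which deliver, edit or complete charged tRNA, 14 reached the filter of 1 TPM, 8 of them higher and 6 lower in KO+OE, with 0 past an adjusted and 0 past an unadjusted p of 0.05 and a median log2 fold change of 0.04. The exception was SEPSECS, which makes selenocysteine on its tRNA, at 0.09 to 0.19 TPM. EEF1A1, the factor that carries charged tRNA to the cytosolic ribosome, was 9547 to 9954 TPM, its mitochondrial counterpart TUFM 325 to 335 TPM and DTD1, which removes D-amino acids from tRNA, 69.7 to 71.1 TPM.

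Genes of the amino acid response were compared because ATF4 acts on many synthetase genes. Of the 16 genes 15 were tested, 8 higher and 7 lower in KO+OE, and 0 passed an adjusted or an unadjusted p of 0.05, with a median log2 fold change of 0.0038. ATF4 was 344.68 and 365.03 TPM in control and 356.18 and 371.35 TPM in KO+OE. SLC3A2, the heavy chain of amino acid transporters, was 266 to 286 TPM and overlapped between groups. ASNS, asparagine synthetase, was 180.27 and 182.70 TPM in control and 192.30 and 185.47 TPM in KO+OE, or 0.06 on the log2 scale (interval -0.036 to 0.15). SLC7A11, a cystine transporter, was under the filter at 0.47 to 0.53 TPM.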

How the data were processed

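RNA of 4 H9 libraries was selected with oligo(dT) beads, fragmented and sequenced. The submitters' processing notes name HISAT2, featureCounts, Subread, DESeq2 and the build hg38, without roles. The authors deposited 1 column per library with no unit named, and the deposited values were read as TPM because columns hold decimals and sum to nearly the same total. The table held 0 other per-sample columns. TPM holds no counts, so a count test was not used and depth is unknown. Groups and replicate numbers came from the sample titles.

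Values were compared as log2(TPM + 1) over the 12319 genes that averaged 1 TPM or more, with limma 3.58.1 in R 4.3.3 (lmFit, eBayes with a mean-dependent prior, two-sided), group as the only term and Benjamini-Hochberg adjustment over all genes tested. On this scale the fold change of a low gene is understated. The limma fit was first tested on data simulated with known changes. Results of 1 member are not reported here singly or drawn, and counts and medians over lists include it. The members and gene lists were chosen with earlier results of these data known. Named genes are all other members, NUDT21, and of each further list the 3 most abundant and those with an unadjusted p under 0.05. SEPSECS, SLC7A11, DDIT3, DDX19B, GGA2, ZMAT2, AL669830.2 and WARS2-AS1 were added with their values in view. GC content and length were read from each gene's canonical transcript in GENCODE release 44 on GRCh37, matched by Ensembl identifier (98.6% of genes tested). Promoter windows and gene positions are from RefSeq on GRCh38.p14, matched by symbol. Python 3.11.15, pandas 2.3.3 and matplotlib 3.10.9 were used.

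The alternatives were pseudocounts of 0.1 and 5, a stricter filter (mean of 5 TPM) and none, median-ratio rescaling, quantile normalization, rescaling without the mitochondrial genome, a prior without trend, a replicate block, GARS1 and KARS1 left out, and each library left out in turn, where the lone library is assumed to vary like the others.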

Additional observations from a re-analysis of the deposited data

How the results depend on the processing

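In each of the 13 alternatives across all genes 0 members passed an adjusted p of 0.05, and the lowest adjusted p was 0.703, for MARS1 with the replicate block. The number at an unadjusted p under 0.05 went from 2 to 0 with a prior without trend, and it was 0 to 1 with a library left out (0 without KO+OE replicate 1, 1 without each of the others). The deviations of same-numbered libraries correlated at -0.049, so the values showed no sign of pairing by replicate number. The labels do not say whether same-numbered libraries were handled together. With the replicate block 3 members had an unadjusted p under 0.05, and over all genes 0 passed an adjusted p and 673 an unadjusted p of 0.05.

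The level difference of cytosolic over mitochondrial medians, 2.66 on the log2 scale, became 2.76 and 2.30 with pseudocounts of 0.1 and 5, 3.00 with the filter at 5 TPM, which drops low genes of both compartments, and 2.01 without GARS1 and KARS1, and it ran from 2.63 to 2.67 with a library left out. The list medians of the fold change ran from -0.0034 to 0.017 (cytosolic) and from -0.0066 to 0.040 (mitochondrial) with a library left out. The count of 10 amino acids with the cytosolic gene higher did not move.

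KARS1 turned sign under median-ratio rescaling (0.010), quantile normalization (0.0079) and rescaling without the mitochondrial genome (0.011), and YARS2 under the last (0.0012). With a library left out 20 of 36 members kept their sign in every setting and 16 did not. Their log2 fold changes ran from -0.11 to 0.018 (CARS1), -0.011 to 0.17 (CARS2), -0.46 to 0.067 (EPRS1), -0.0014 to 0.064 (GARS1), -0.0074 to 0.096 (HARS1), -0.023 to 0.017 (KARS1), -0.024 to 0.16 (LARS1), -0.20 to 0.052 (LARS2), -0.19 to 0.10 (NARS1), -0.14 to 0.056 (NARS2), -0.0044 to 0.20 (RARS2), -0.0086 to 0.039 (SARS1), -0.0054 to 0.024 (SARS2), -0.23 to 0.059 (TARS1), -0.071 to 0.078 (VARS1) and -0.25 to 0.23 (YARS2), and that of NUDT21 from -0.012 to 0.066. The causes were not tested.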
